A study of Mus musculus with 8 samples.

Results

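The genes described here encode 10 subunits of the Polycomb repressive complexes and were chosen by symbol: *Ezh1*, *Ezh2*, *Eed*, *Suz12* and *Jarid2* of Polycomb repressive complex 2 (PRC2), and *Bmi1*, *Ring1*, *Rnf2*, *Cbx7* and *Cbx8* of Polycomb repressive complex 1 (PRC1). They are 10 of the 41325 gene symbols listed in each library, the rule names symbols and uses no measured value, though it was set with earlier results of these data known, and all 10 passed the filter of an RPKM (a read count corrected for exon length and mapped reads) over 1 in at least 1 library that left 11513 genes.

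RNA-seq was performed on C3H10T1/2, a mesenchymal stem cell line of the mouse that becomes fat cells after hormonal induction with insulin, dexamethasone and the phosphodiesterase inhibitor IBMX. The cells stably expressed a control short hairpin RNA (shControl) or hairpins against the histone demethylase KDM4D (shKDM4D), the transcription factor NFIB (shNFIB) or the histone methyltransferase MLL1 (shMLL1, gene symbol *Kmt2a*). Each of the 4 lines was sequenced when confluent and before induction (day 0) and at day 5, which gave 8 libraries, 1 for each line and day. Knockdown lines were isolated as puromycin-resistant clones of cells carrying the pLKO.1 hairpin vector, and which clone was sequenced and how the shControl line was selected are not given in the sources used here.

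PRC2 methylates lysine 27 of histone H3 through either of the catalytic subunits EZH1 and EZH2, which need EED and SUZ12 for activity, and JARID2 is an accessory subunit that helps to place the complex on its targets. PRC1 ubiquitinates histone H2A through the E3 ligases RING1 and RNF2 (also called RING1A and RING1B), which pair with a PCGF protein such as BMI1, and its CBX subunits bind the methyl mark left by PRC2 through a chromodomain. Polycomb silencing is opposed by the MLL family, which methylates lysine 4 of histone H3, and EZH2 is known as the form of dividing cells while EZH1 is the more abundant form in many non-dividing tissues.

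The libraries held between 15800000 and 38200000 mapped reads, with between 52 and 5907 reads per library on each of the 10 genes. Because no condition was replicated, no p-value is given, and every interval is a 95% interval that covers counting error alone, not the spread between cultures. The targeted genes *Kmt2a* and *Nfib* were lower in their own knockdown lines than in shControl cells (2.00 and 1.63 RPKM against 5.17 and 5.27 for *Kmt2a* at day 0 and day 5, and 2.31 and 3.38 against 9.92 and 17.0 for *Nfib*), whereas *Kdm4d* was listed at 0.235 RPKM or less in every library, with too few reads for a check. The summed RPKM of 8 adipocyte markers went from 10.95 to 831 in shControl cells and reached 39.1, 12.1 and 12.5 at day 5 in shKDM4D, shNFIB and shMLL1 cells. Of 8 mesenchymal markers all were over 1 RPKM in shControl and shMLL1 cells, but *Thy1*, a surface glycoprotein, was between 0.0171 and 0.139 RPKM in the shKDM4D and shNFIB libraries against 11.1 to 25.0 RPKM in the others. The 8 marker genes of other cell types summed to at most 3.62 RPKM, of which *Tubb3*, a neuronal tubulin, gave 3.42.

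In shControl cells the PRC2 genes moved in opposite directions between day 0 and day 5. *Ezh1* and *Jarid2* rose 3.32-fold and 2.34-fold, *Ezh2* fell 2.13-fold and *Suz12* fell 1.92-fold, and of the PRC1 genes *Rnf2* rose by 0.83 on the log2 scale. Across all 4 lines, every day 5 level of *Ezh1*, *Jarid2* and *Rnf2* was above every day 0 level, as it was for 22.5% of the 11513 genes. Every day 5 level of *Ezh2*, *Eed* and *Suz12* was below every day 0 level, as it was for 15.1% of genes. For *Rnf2* and *Eed* the nearest levels of the 2 days did not differ beyond counting error. These were 17.94 and 18.02 RPKM for *Rnf2*, and 9.12 and 8.72 RPKM for *Eed*, at day 0 and day 5. The levels of *Bmi1*, *Ring1*, *Cbx7* and *Cbx8* overlapped between the days.

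**Figure D1:**
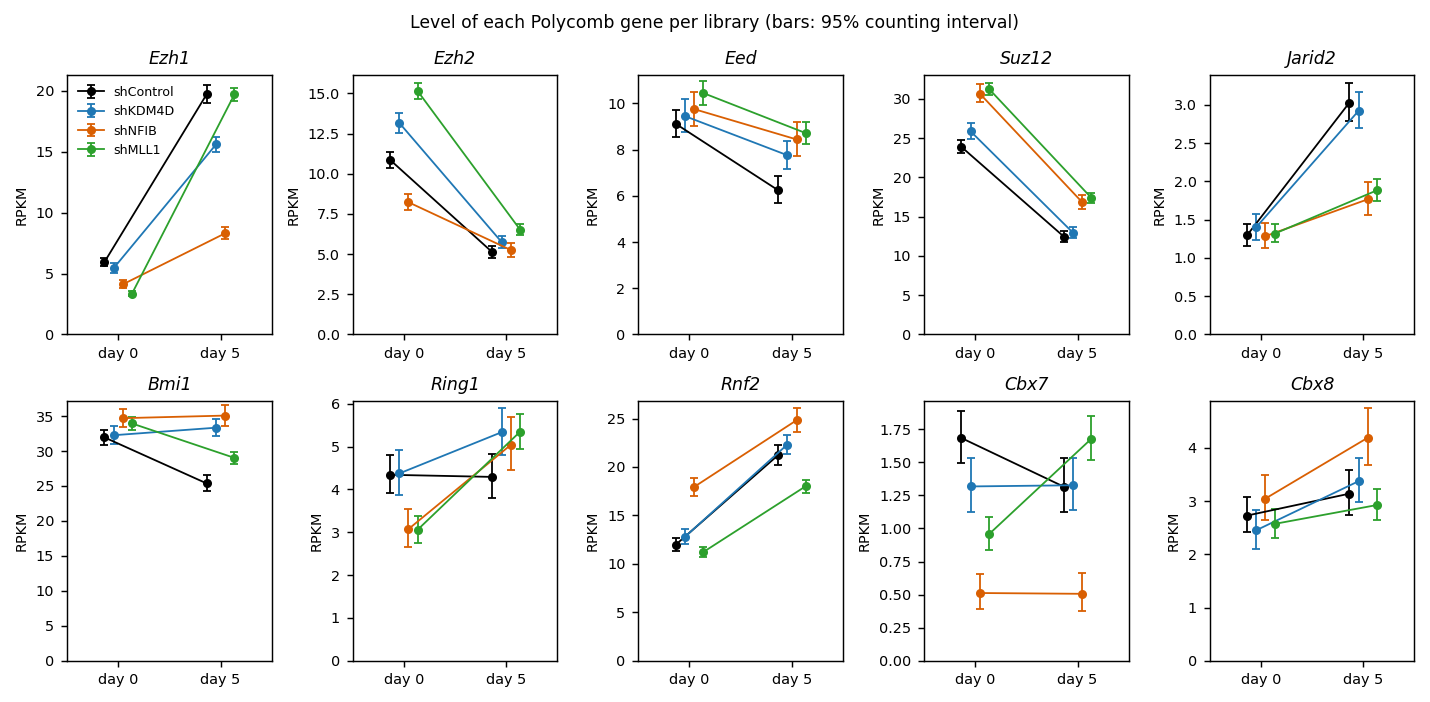
Each panel plots the RPKM of 1 Polycomb gene (y axis, from 0) at day 0 and day 5 (x axis), with 1 point per library coloured by line and bars for the 95% counting interval. *Ezh1* climbs from between 3.36 and 5.93 to between 8.31 and 19.7 RPKM, *Ezh2* and *Suz12* drop in all 4 lines, and *Cbx7* is lowest in both shNFIB libraries.

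*Ezh1* (chr11:101191115-101226463 of GRCm38, minus strand) had day 0 levels of 5.93 RPKM for shControl, 5.43 for shKDM4D, 4.11 for shNFIB and 3.36 for shMLL1 cells. At day 5 it had reached 19.7, 15.6, 8.31 and 19.7 RPKM in the same lines. It had the widest range of the 10 genes, 5.88-fold, and the shMLL1 line held both its lowest level, at day 0, and a day 5 level that could not be told from that of shControl cells within counting error. The log2 change from day 0 to day 5 was 1.73 (1.63 to 1.83) for shControl, 1.52 (1.40 to 1.64) for shKDM4D, 1.01 (0.86 to 1.17) for shNFIB and 2.55 (2.45 to 2.65) for shMLL1 cells. *Ezh1* was past 1.5-fold higher in all 4 lines, as were 12.9% of all genes.

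*Ezh2* (chr6:47530139-47595341, minus strand), which encodes the alternative catalytic subunit, had day 0 levels of 10.9 RPKM for shControl, 13.2 for shKDM4D, 8.23 for shNFIB and 15.1 for shMLL1 cells. The day 5 levels were 5.11, 5.75, 5.26 and 6.52 RPKM. The 4 lines were spread at day 0 and close together at day 5, where the shKDM4D and shNFIB values and the shNFIB and shControl values did not differ beyond counting error. The log2 change was -1.09 (-1.22 to -0.96) for shControl, -1.20 (-1.32 to -1.08) for shKDM4D, -0.65 (-0.80 to -0.50) for shNFIB and -1.22 (-1.30 to -1.13) for shMLL1 cells.

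*Suz12* (chr11:79993106-80034123, plus strand), the zinc finger subunit that holds PRC2 together, had day 0 levels of 23.9 RPKM for shControl, 25.9 for shKDM4D, 30.7 for shNFIB and 31.3 for shMLL1 cells, and day 5 levels of 12.5, 13.0, 16.8 and 17.4 RPKM. Its log2 change was nearly the same in the 4 lines, between -0.998 in shKDM4D and -0.85 in shMLL1 cells, and the difference from the change in shControl cells had an interval that held 0 in each knockdown line. *Ezh2* and *Suz12* were past 1.5-fold lower in all 4 lines, as were 6.86% of all genes.

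The promoters of *Ezh2* and *Suz12* are shown because they were the only members' promoters with a match to a searched motif of E2F, the family of factors that drives S phase genes. The 11 RefSeq promoters (GRCm38.p6) matched to the 10 genes ran from 250 bases before to 50 bases after a start and were searched on both strands for TTTCCCGC, TTTGGCGC and TTTCGCGC. Each window is 30 bases long on the strand of its gene, chr6:47595009-47595038 (minus strand) and chr11:79992876-79992905 (plus strand), with the matching letters in capitals.
Ezh2: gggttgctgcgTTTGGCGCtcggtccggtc
Suz12: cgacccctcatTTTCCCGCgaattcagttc
The match in *Ezh2* lay at bases 4 to 11, counted from 1 at the first transcribed base of RefSeq, and that in *Suz12* began 219 bases before the start. At least 1 of these motifs was found in 1.84% of all 32851 promoters and in 3.48% of the 11324 promoters of genes that passed the RPKM filter. The palindromic motif of the NFI family, to which NFIB belongs, was in none of the members' promoters and in 0.0365% of all promoters. A match is a description of the letters and not evidence of binding.

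*Eed* (chr7:89954654-89980983, minus strand), whose product binds methylated histone H3 and stimulates the enzyme, moved in the same direction by less. It had 9.12 RPKM for shControl, 9.45 for shKDM4D, 9.76 for shNFIB and 10.4 for shMLL1 cells at day 0, and 6.24, 7.76, 8.44 and 8.72 RPKM at day 5. No change of *Eed* was past 1.5-fold. The lowest, -0.55 (-0.71 to -0.38) on the log2 scale, was that of shControl cells, against -0.28 (-0.44 to -0.13), -0.21 (-0.38 to -0.04) and -0.26 (-0.37 to -0.15) in the knockdown lines, of which the shKDM4D value turned to 0.18 when scaled to *Gapdh*.

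*Jarid2* (chr13:44729474-44921643, plus strand) had almost equal day 0 levels of 1.29 RPKM for shControl, 1.40 for shKDM4D, 1.28 for shNFIB and 1.32 for shMLL1 cells, which did not differ beyond counting error. At day 5 the lines formed an upper pair, shControl with 3.03 and shKDM4D with 2.92 RPKM, and a lower pair, shNFIB with 1.77 and shMLL1 with 1.88 RPKM. The log2 change was 1.23 (1.03 to 1.43) in shControl and 1.06 (0.85 to 1.27) in shKDM4D cells. It was 0.46 (0.20 to 0.72) in shNFIB cells and 0.52 (0.35 to 0.69) in shMLL1 cells, both short of 1.5-fold, and these values turned to -0.11 with *Gapdh* scaling and to -0.08 with quantile normalization, respectively.

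Among the PRC1 genes the E3 ligase *Rnf2* (chr1:151458004-151500955, minus strand) had a higher level at day 5 in every line, though not in shNFIB cells when scaled to *Gapdh*. Its levels were 12.0 RPKM for shControl, 12.8 for shKDM4D, 17.9 for shNFIB and 11.2 for shMLL1 cells at day 0, and 21.2, 22.3, 24.8 and 18.02 RPKM at day 5. The days were separated by a small margin within counting error, from 17.94 RPKM in shNFIB cells at day 0 to 18.02 RPKM in shMLL1 cells at day 5. The log2 change was 0.83 (0.72 to 0.93) for shControl, 0.80 (0.69 to 0.91) for shKDM4D, 0.47 (0.36 to 0.57) for shNFIB and 0.68 (0.60 to 0.77) for shMLL1 cells, and the shNFIB value turned to -0.10 with *Gapdh* scaling. Of the exon bases of *Rnf2*, 3.83% are shared with *Trmt1l* on the opposite strand, which had 3.84 to 5.02 RPKM, and the strand setting of the counting is not given in the sources used here.

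The other E3 ligase gene, *Ring1* (chr17:34020792-34024680, minus strand), differed between lines in its change. It had 4.34 RPKM for shControl, 4.37 for shKDM4D, 3.07 for shNFIB and 3.06 for shMLL1 cells at day 0, and 4.29, 5.34, 5.04 and 5.35 RPKM at day 5. The shNFIB and shMLL1 lines were thus below the other lines at day 0 and within counting error of shKDM4D cells at day 5. The log2 change was -0.02 (-0.25 to 0.21) for shControl and 0.29 (0.06 to 0.52) for shKDM4D cells, and *Ring1* rose by 0.71 (0.44 to 0.99) for shNFIB and by 0.81 (0.62 to 0.99) for shMLL1 cells.

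*Bmi1* (chr2:18677018-18686629, plus strand), which encodes the PCGF partner of the ligases, was the highest of the 10 genes per length in every library and varied least, 1.38-fold. It had 32.0, 32.3, 34.7 and 33.9 RPKM at day 0 and 25.4, 33.3, 35.1 and 29.0 RPKM at day 5 in shControl, shKDM4D, shNFIB and shMLL1 cells. The 2 lowest levels were those of shControl and shMLL1 cells at day 5. No change of *Bmi1* was past 1.5-fold, and the log2 change was -0.33 (-0.41 to -0.25) in shControl cells. A transcript of *Gm5946* is 97.0% identical to *Bmi1* over 2658 of 3594 bases, so reads of the 2 may be shared and the level of *Bmi1* is uncertain to that extent.

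The chromodomain genes were the least abundant together with *Jarid2*. *Cbx7* (chr15:79915807-79971119, minus strand) had 1.68 RPKM for shControl, 1.32 for shKDM4D, 0.512 for shNFIB and 0.956 for shMLL1 cells at day 0, and 1.32, 1.33, 0.506 and 1.68 RPKM at day 5. The shNFIB line was the lowest on both days and had nearly the same level on each, with a log2 change of -0.02 (-0.58 to 0.54) from the fewest reads of any member, 52 at day 5. *Cbx7* rose by 0.81 (0.58 to 1.05) in shMLL1 cells, to the 1.68 RPKM that shControl cells had at day 0, while its change was -0.36 (-0.64 to -0.08) in shControl and 0.01 (-0.30 to 0.32) in shKDM4D cells. Of its exon bases, 1.54% are shared with *Apobec3* on the opposite strand, which had 2.59 to 5.20 RPKM.

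*Cbx8* (chr11:119036305-119040969, minus strand) had 2.73, 2.45, 3.05 and 2.57 RPKM at day 0 and 3.14, 3.37, 4.19 and 2.93 RPKM at day 5 in the same order of lines. None of its changes was past 1.5-fold. The log2 change was 0.46 (0.18 to 0.74) in shKDM4D and 0.46 (0.19 to 0.73) in shNFIB cells, the latter turning to -0.11 with *Gapdh* scaling, and the intervals held 0 in shControl (0.20) and shMLL1 cells (0.19).

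**Figure D2:**
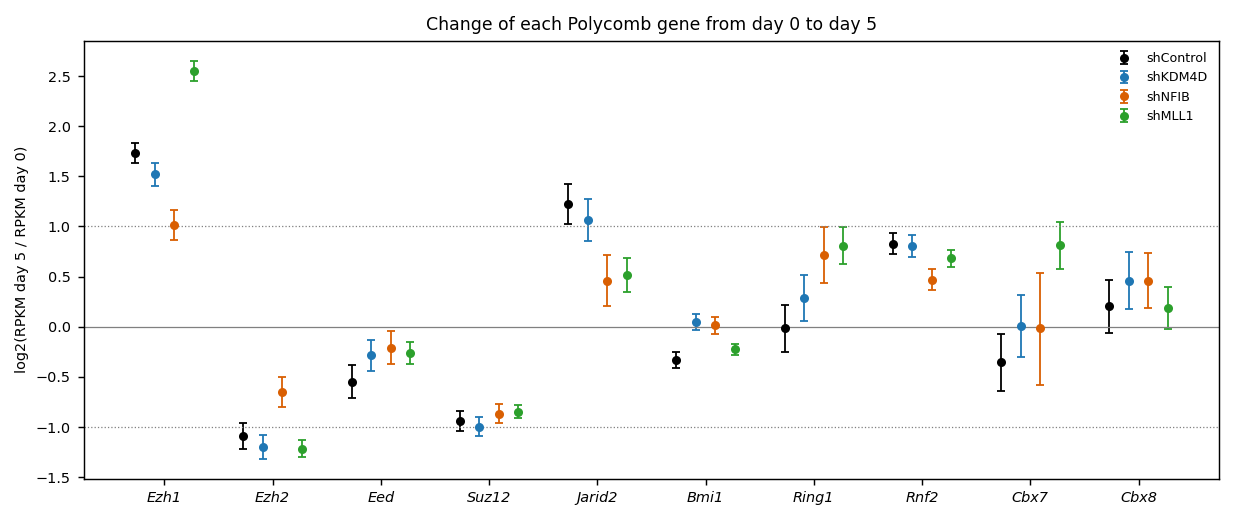
The log2 ratio of RPKM at day 5 to day 0 (y axis) is plotted for the 10 Polycomb genes (x axis) in the 4 lines, with 95% counting intervals as bars and dotted lines at 2-fold. *Ezh1* lies above 0 and *Ezh2* and *Suz12* lie below 0 in all 4 lines, *Jarid2* splits into an upper and a lower pair of lines, and *Ring1* and *Cbx7* differ between lines.

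Counted over the 10 genes, 2 were past 2-fold higher in shControl cells at day 5 (*Ezh1* and *Jarid2*) where 13% of all genes were, and 1 was past 2-fold lower (*Ezh2*) where 8.56% were. The same 3 genes were past 2-fold in shKDM4D cells, against 12.8% higher and 8.44% lower among all genes. *Suz12* was just short of 2-fold lower in that line (1.997-fold), within counting error. In shNFIB cells *Ezh1* alone was past 2-fold, by a narrow margin (2.02-fold, against 12.6% of genes higher), and no member was lower, against 4.96%. In shMLL1 cells 1 member was higher (*Ezh1*, 20.4% of genes) and 1 lower (*Ezh2*, 6.89%). At 1.5-fold the members that were higher were *Ezh1*, *Jarid2* and *Rnf2* in shControl (22.7% of genes) and shKDM4D cells (21.9%), *Ezh1* and *Ring1* in shNFIB cells (22.4%), and *Ezh1*, *Ring1*, *Rnf2* and *Cbx7* in shMLL1 cells (32.2%). Those lower were *Ezh2* and *Suz12* in all 4 lines, against 17.5%, 16.8%, 12.6% and 15.6% of genes. The shares of the members are thus near those of all genes, and a single gene moves each of them by 10% of the members.

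The catalytic subunits of PRC2 changed places in all 4 lines. On the RPKM scale *Ezh1* was below *Ezh2* in every day 0 library, with a log2 ratio of -0.87 (-0.98 to -0.77) for shControl, -1.28 (-1.40 to -1.16) for shKDM4D, -1.001 (-1.15 to -0.85) for shNFIB and -2.17 (-2.28 to -2.07) for shMLL1 cells. It was above *Ezh2* in every day 5 library, with 1.95 (1.83 to 2.07), 1.44 (1.33 to 1.55), 0.66 (0.51 to 0.81) and 1.59 (1.52 to 1.67). As a share of the summed level of the pair, *Ezh1* went from 35.3% to 79.4% for shControl, from 29.2% to 73.1% for shKDM4D, from 33.3% to 61.2% for shNFIB and from 18.1% to 75.1% for shMLL1 cells. The ratio of the genes in 1 library does not depend on how that library is scaled. Its change between the days was 7.07-fold for shControl, 6.58-fold for shKDM4D, 3.16-fold for shNFIB and 13.6-fold for shMLL1 cells, so that the shift was smallest in shNFIB and greatest in shMLL1 cells, beyond the counting intervals.

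The summed level of *Ezh1* and *Ezh2* moved less than *Ezh1* itself, from 16.8 to 24.8 RPKM for shControl, 18.6 to 21.3 for shKDM4D, 12.3 to 13.6 for shNFIB and 18.5 to 26.2 for shMLL1 cells. With the drop of *Suz12*, the level of *Suz12* relative to this sum went from 1.42 to 0.502 for shControl, 1.39 to 0.607 for shKDM4D, 2.48 to 1.24 for shNFIB and 1.69 to 0.663 for shMLL1 cells. The ratio was highest in the shNFIB line on both days.

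The E3 ligase and chromodomain pairs kept their order. *Ring1* was below *Rnf2* in all 8 libraries, by a log2 ratio between -2.55 in shNFIB cells at day 0 and -1.46 in shControl cells at day 0. This ratio changed by -0.84 (-1.09 to -0.59) for shControl and -0.52 (-0.77 to -0.27) for shKDM4D cells, and by 0.25 (-0.05 to 0.54) for shNFIB and 0.12 (-0.08 to 0.32) for shMLL1 cells. *Cbx7* was below *Cbx8* in all 8 libraries as well, by -3.05 in shNFIB cells at day 5 to -0.70 in shControl cells at day 0. The ratio of *Cbx7* to *Cbx8* changed by -0.56 (-0.94 to -0.18) in shControl and by 0.62 (0.32 to 0.93) in shMLL1 cells, in opposite directions.

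**Figure D3:**
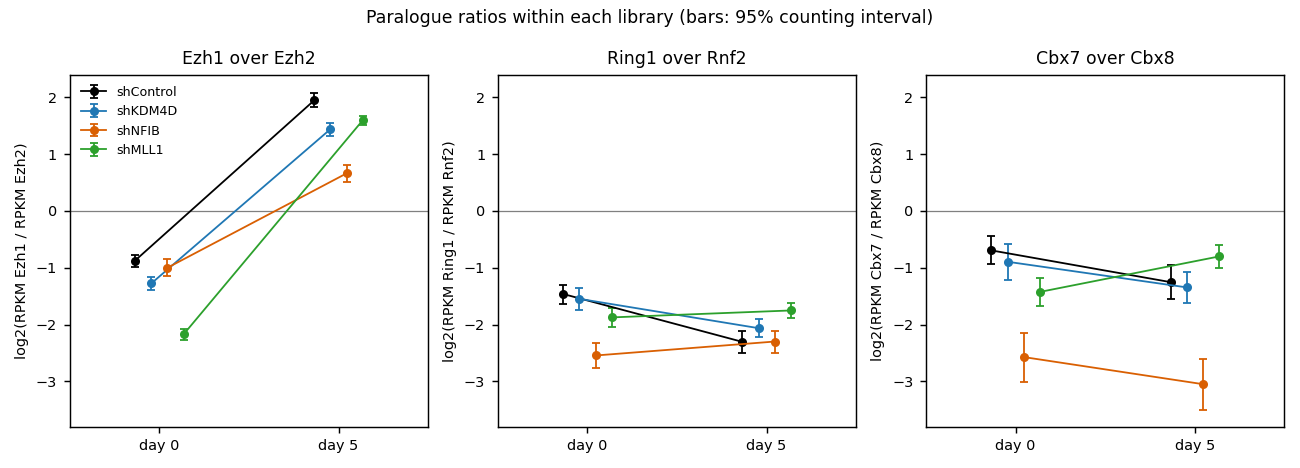
The log2 ratio of RPKM between 2 genes that take the same place in a complex (y axis) is plotted for day 0 and day 5 (x axis) in the 4 lines, with 95% counting intervals as bars. The ratio of *Ezh1* to *Ezh2* crosses 0 in every line, from between -2.17 and -0.87 to between 0.66 and 1.95, while the other pairs stay below 0.

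Genes of DNA replication and mitosis had lower levels at day 5, as did *Ezh2*, *Suz12* and *Eed* but not *Ezh1* and *Jarid2*. All 19 genes of a proliferation list had a lower level at day 5 in every line, with 17 past 2-fold lower for shControl, 17 for shKDM4D, 6 for shNFIB and 14 for shMLL1 cells, and a median log2 ratio of -1.52, -1.39, -0.93 and -1.25. Past 2-fold lower were 8.56%, 8.44%, 4.96% and 6.89% of all genes in the same lines. In the list *Mki67*, a marker of cycling cells, went from 76.7 to 30.1 RPKM for shControl, 111.9 to 34.9 for shKDM4D, 119.2 to 29.5 for shNFIB and 113.0 to 31.6 for shMLL1 cells, and *Mcm2*, a subunit of the replicative helicase, from 29.8 to 6.95, 26.3 to 9.08, 23.5 to 12.3 and 41.0 to 14.3. *E2f1*, an E2F family gene, moved less, from 9.14 to 7.32 RPKM in shControl cells, 10.8 to 7.30 with shKDM4D, 9.89 to 7.63 with shNFIB and 10.96 to 7.04 with shMLL1. *Ezh2* fell less than the median of the list in all 4 lines, by a margin of 0.43 for shControl, 0.19 for shKDM4D, 0.28 for shNFIB and 0.04 for shMLL1 cells on the log2 scale. In shMLL1 cells the counting interval of *Ezh2* (-1.30 to -1.13) held the list median. The change of *Ezh2* and the list median were both nearest to 0 in shNFIB cells. Over the other lines the list median was lowest in shControl cells. The *Ezh2* change minus that of shControl cells was -0.11 for the shKDM4D line and -0.13 for the shMLL1 line. Both intervals held 0, so no order of *Ezh2* over these lines can be given. The part of the proliferation genes in the changes of *Ezh2* and *Suz12* was not tested, and in bulk RNA a smaller number of cells of a kind and less RNA per cell cannot be told apart.

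**Figure D4:**
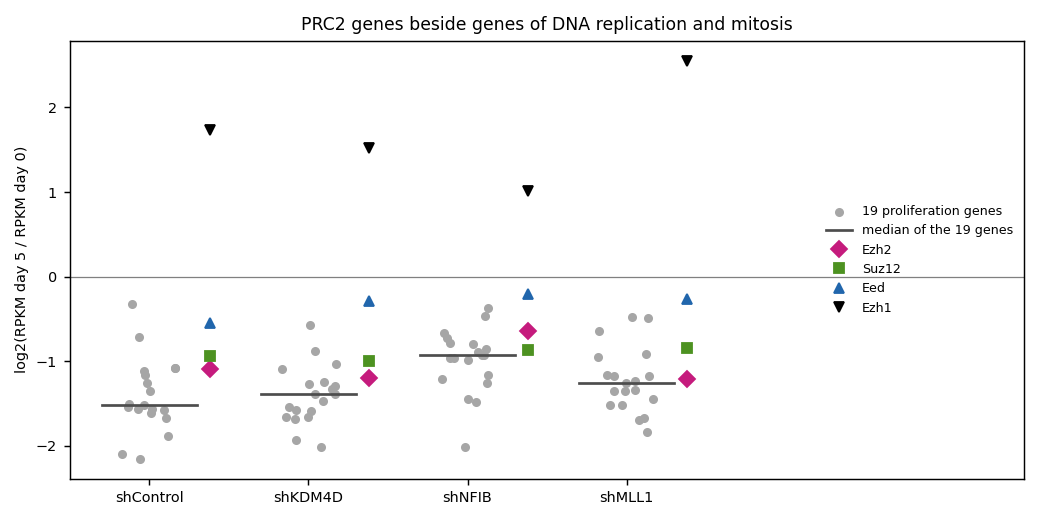
The log2 ratio of RPKM at day 5 to day 0 (y axis) is plotted by line (x axis) for 19 proliferation genes (grey points, with a bar at their median) beside *Ezh1*, *Ezh2*, *Suz12* and *Eed*. *Ezh2* and *Suz12* lie within the range of the proliferation genes in each line, *Eed* lies above all of them in the 3 knockdown lines, and *Ezh1* lies above 0.

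Before induction, the differences from shControl cells past 1.5-fold were *Cbx7* in shNFIB cells and *Ezh1* and *Cbx7* in shMLL1 cells. In shKDM4D cells no member was past 1.5-fold in either direction, where 5.39% of genes were higher and 8.72% lower, nor past 2-fold, where 1.98% and 4.26% were. In shNFIB cells *Cbx7* was 3.29-fold lower, with a log2 ratio of -1.72 (-2.14 to -1.32), the only member past 1.5-fold or 2-fold, where 12.2% and 6.05% of genes were lower and 8.73% and 2.95% higher. In shMLL1 cells *Ezh1* and *Cbx7* were 1.77-fold and 1.76-fold lower, each with a log2 ratio of -0.82 (-0.95 to -0.70 for *Ezh1*, -1.07 to -0.56 for *Cbx7*), and no member was past 2-fold. Past 1.5-fold were 15.9% of genes lower and 4.73% higher in shMLL1 cells, and past 2-fold 7.43% and 1.67%.

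Smaller differences at day 0 had intervals clear of 0 but were short of 1.5-fold. *Ezh2* had a log2 ratio of 0.28 (0.18 to 0.37) for shKDM4D, -0.40 (-0.51 to -0.29) for shNFIB and 0.48 (0.40 to 0.56) for shMLL1 cells. *Suz12* had 0.36 (0.29 to 0.43) in shNFIB and 0.39 (0.33 to 0.45) in shMLL1 cells, and *Rnf2* had 0.58 (0.47 to 0.69) in shNFIB cells. *Ring1* had -0.50 in both shNFIB (-0.76 to -0.24) and shMLL1 cells (-0.71 to -0.30). *Ezh1* had -0.53 (-0.68 to -0.38) in shNFIB cells, and *Cbx7* had -0.35 (-0.64 to -0.07) in shKDM4D cells. The smallest were *Suz12* at 0.12 (0.04 to 0.19) in shKDM4D cells and *Eed* at 0.20 (0.08 to 0.32) in shMLL1 cells. With them was *Bmi1* at 0.12 (0.04 to 0.19) in shNFIB and 0.09 (0.02 to 0.15) in shMLL1 cells. With *Gapdh* scaling the *Ezh2* ratio turned to -0.12 in shKDM4D and to 0.24 in shNFIB cells, and in shNFIB cells the ratios of *Ring1* and *Ezh1* turned to 0.14 and 0.11. Under the same scaling the *Suz12* ratio turned to -0.28 in shKDM4D cells. Those of *Eed* and *Bmi1* turned to -0.01 and -0.12 in shMLL1 cells. The median of the proliferation list against shControl cells was 0.33 for shKDM4D, 0.34 for shNFIB and 0.48 for shMLL1 cells on the log2(RPKM + 0.1) scale, whose part in these ratios was not tested.

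At day 5 the differences from shControl cells past 1.5-fold lay in *Ezh1*, *Jarid2* and *Cbx7*. In shNFIB cells *Ezh1* was 2.38-fold lower, with a log2 ratio of -1.25 (-1.35 to -1.14), *Cbx7* was 2.60-fold lower with -1.38 (-1.86 to -0.92), and *Jarid2* was 1.71-fold lower with -0.78 (-0.99 to -0.57). Past 1.5-fold were 11.7% of genes lower and 14.6% higher in shNFIB cells, and past 2-fold 5.67% and 5.54%. In shMLL1 cells *Jarid2* was 1.61-fold lower with -0.69 (-0.85 to -0.52), the only member past 1.5-fold, where 8.76% of genes were lower and 12.4% higher, and none was past 2-fold, where 4.02% and 5.25% were. In shKDM4D cells no member was past 1.5-fold, where 9.38% of genes were lower and 5.22% higher, nor past 2-fold, where 4.57% and 1.88% were. No member was past 1.5-fold higher than in shControl cells on either day in any of the 3 knockdown lines. The nearest was *Rnf2* in shNFIB cells at day 0, at 1.499-fold, which counting error cannot tell from 1.5-fold.

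*Eed* and *Bmi1* in all 3 knockdown lines, and *Suz12* in shNFIB and shMLL1 cells, were above shControl cells at day 5 by less than 1.5-fold. The log2 ratio of *Eed* to shControl cells was 0.31 (0.14 to 0.49) with shKDM4D, 0.44 (0.25 to 0.62) with shNFIB and 0.48 (0.33 to 0.64) with shMLL1, and *Bmi1* had 0.39 (0.31 to 0.48), 0.47 (0.38 to 0.56) and 0.19 (0.12 to 0.27), of which the last turned to -0.16 with *Gapdh* scaling. *Suz12* had 0.43 (0.32 to 0.55) in shNFIB and 0.48 (0.38 to 0.58) in shMLL1 cells, and 0.06 (-0.06 to 0.17), an interval that holds 0, in shKDM4D cells. Other day 5 ratios were also clear of 0 and short of 1.5-fold. Among them were *Ezh1* at -0.34 (-0.42 to -0.26) and *Ring1* at 0.31 (0.08 to 0.55) in shKDM4D cells. *Cbx8* had 0.42 (0.15 to 0.69) in shNFIB cells. *Ezh2* and *Cbx7* each had 0.35 in shMLL1 cells, both turning to -0.01 with *Gapdh* scaling. The median of the proliferation list was 0.36, 0.66 and 0.69 at day 5 in shKDM4D, shNFIB and shMLL1 cells on the log2(RPKM + 0.1) scale, and the adipocyte markers of all 3 knockdown lines were far below those of shControl cells, as given above. The part of either in these ratios was not tested.

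**Figure D5:**
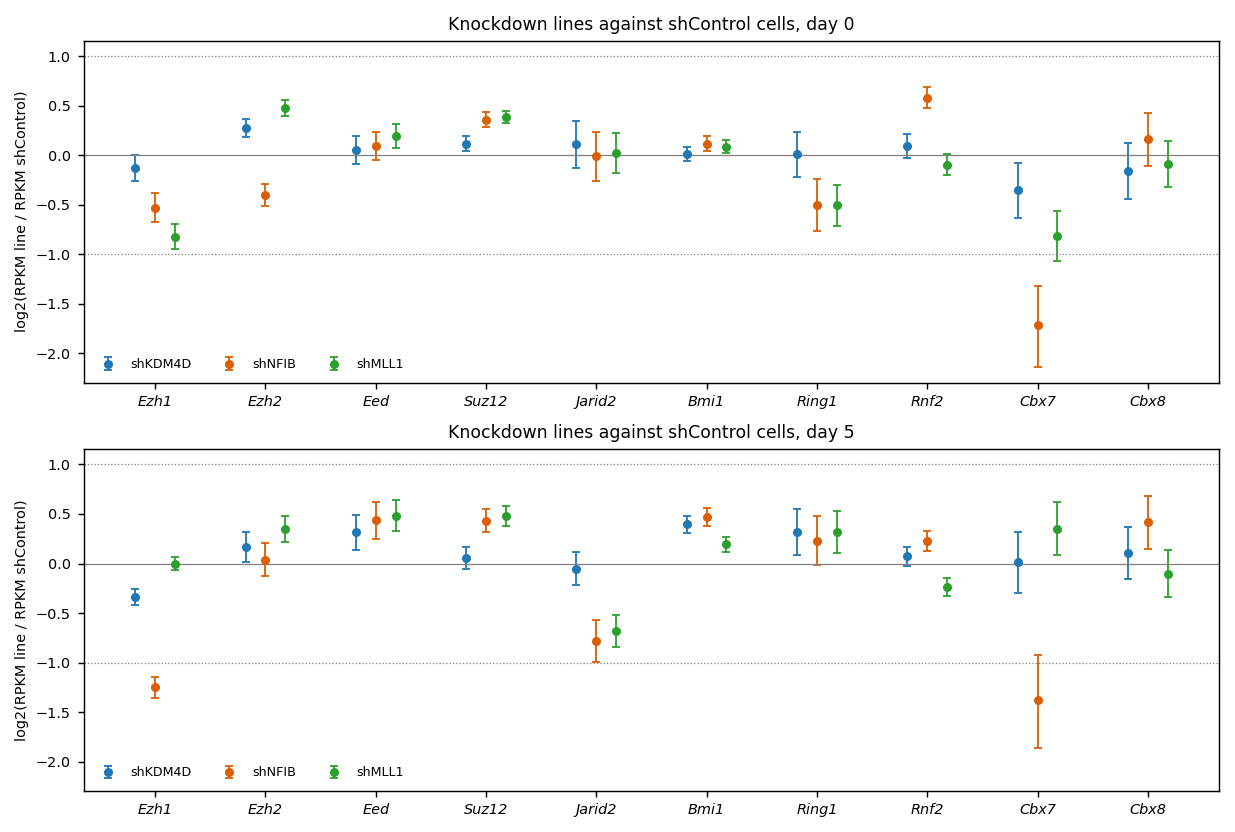
The log2 ratio of RPKM in a knockdown line to shControl cells (y axis) is plotted for the 10 Polycomb genes (x axis) at day 0 and day 5, with 95% counting intervals as bars and dotted lines at 2-fold. The points beyond 2-fold are *Cbx7* in shNFIB cells on both days and *Ezh1* in shNFIB cells at day 5.

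The change between the days was also compared directly between lines, as the log2 change in a knockdown line minus that in shControl cells. In shKDM4D cells none of the 10 differences was past 1.5-fold, where 6.25% of genes were higher and 6.98% lower. In shNFIB cells the changes of *Ezh1* and *Jarid2* were below those in shControl cells, by -0.72 (-0.90 to -0.54) and -0.77 (-1.09 to -0.45), where 9.43% of genes were lower, and that of *Ring1* was above, by 0.73 (0.38 to 1.08), where 14.6% were higher. In shMLL1 cells the changes of *Ezh1*, *Ring1* and *Cbx7* were above those in shControl cells, by 0.82 (0.68 to 0.96), 0.82 (0.53 to 1.11) and 1.17 (0.81 to 1.53), where 20.4% of genes were higher, and that of *Jarid2* was below, by -0.71 (-0.97 to -0.45), where 5.97% were lower. The larger changes of *Ezh1*, *Ring1* and *Cbx7* in shMLL1 cells began from day 0 levels below those of shControl cells (3.36 against 5.93, 3.06 against 4.34 and 0.956 against 1.68 RPKM). All of these differences share the shControl libraries.

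Of 7 further PRC2 genes all were tested, and past 2-fold lower at day 5 were *Phf19* and *Epop* for shControl, *Phf19* for shKDM4D, *Epop* for shNFIB and both for shMLL1 cells, where *Phf1* was higher. Of all genes, 8.56%, 8.44%, 4.96% and 6.89% were past 2-fold lower in these lines, and 20.4% were higher in shMLL1 cells. *Phf19*, a Polycomb-like accessory subunit, went from 2.92 to 0.678 RPKM for shControl, 4.63 to 1.28 for shKDM4D, 2.48 to 1.25 for shNFIB and 4.03 to 1.81 for shMLL1 cells. *Phf1*, its paralogue, went from 3.88 to 5.35 for shControl, 3.71 to 6.53 for shKDM4D, 3.68 to 4.73 for shNFIB and 1.68 to 3.86 for shMLL1 cells. The shMLL1 line was the lowest for *Phf1* on both days. At day 0 it was past 2-fold below shControl cells, where 7.43% of genes were, the only such call of the list on that day.

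Of 18 tested genes among 19 further PRC1 genes, *Pcgf5*, which encodes another PCGF partner, was past 2-fold lower at day 5 in shControl cells (2.06 to 0.774 RPKM) and in shKDM4D cells (2.52 to 1.23), the latter together with *L3mbtl2* (7.49 to 3.29). Of all genes, 8.56% and 8.44% were past 2-fold lower in these lines. No gene of this list was past 2-fold between the days in shNFIB or shMLL1 cells, where 4.96% and 6.89% of genes were lower and 12.6% and 20.4% higher. *L3mbtl2* was just short of 2-fold lower in shControl and shMLL1 cells, with log2 changes of -0.97 (-1.15 to -0.80) and -0.99 (-1.10 to -0.88). Its change in shNFIB cells was -0.66 (-0.85 to -0.47). At day 5 *Pcgf5* (1.96 against 0.774 RPKM) and *Phf19* (1.81 against 0.678) were past 2-fold higher in shMLL1 than in shControl cells, where 5.25% of genes were. Of 5 tested genes for H2A deubiquitination and H3 lysine 27 demethylation, *Kdm6b* was past 2-fold higher at day 5 in shMLL1 cells (4.82 to 10.3 RPKM), where 20.4% of genes were. *Kdm6b* encodes a demethylase that removes the mark of PRC2. It also rose in the other lines, by less than 2-fold. Its level went from 4.91 to 9.78 RPKM in shKDM4D, 4.26 to 8.01 in shNFIB and 5.91 to 8.53 in shControl cells. The median log2(RPKM + 0.1) ratio of the day 5 change was -0.39 for the PRC2 list and -0.25 for the PRC1 list in shControl cells, beside 0.03 for all genes. *Cdkn2a* and *Cdkn2b*, classical Polycomb targets, were listed at 0 in all 8 libraries. The cause was not tested, and a silenced gene cannot be told here from one that is absent or was not counted.

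The order of the 10 genes per length was constant in part. *Bmi1* was highest in all 8 libraries. *Ring1* and then *Cbx8* stood directly above *Cbx7* and *Jarid2*, the lowest genes, in all 8 as well. The lowest gene was *Jarid2* in shControl cells at day 0 and *Cbx7* in every other library. At day 0 *Suz12* came next after *Bmi1* in all 4 lines. At day 5 *Rnf2* came next in shControl, shKDM4D and shNFIB and *Ezh1* in shMLL1 cells. *Ezh1* stood below *Eed* in all day 0 libraries and above it in the day 5 libraries of all lines but shNFIB.

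The patterns of the genes over the 8 libraries were compared by the root mean square (RMS) difference of centred log2(RPKM + 0.1) values, among all genes that passed the filter and for the 6 members with a range past 2-fold. Nearest to *Suz12* were *Larp1* (RMS 0.067), an RNA-binding protein gene, *Smc4* (0.069), a condensin subunit of mitotic chromosomes, and *Cdc7* (0.076), a kinase of replication origins. Nearest to *Ezh2* were *Ttll12* (0.11), *Tuba1b* (0.12), an alpha tubulin, and *Rpa2* (0.13), a subunit of the single-stranded DNA binding protein of replication. Nearest to *Ezh1* were *Mxra8* (0.19) and *Gdap10* (0.19). For *Jarid2* they were *Inafm1* (0.12), *Cnn3* (0.12) and *Slc9a5* (0.13), for *Rnf2* *Tspan6* (0.089), *Ric1* (0.095) and *Gm4631* (0.097), and for *Cbx7* *Fbxo31* (0.16), *Dysf* (0.19) and *Man1c1* (0.21). Among the members, *Suz12* lay at 0.30 from *Ezh2*, with 3.22% of genes nearer to *Ezh2* and 9.89% nearer to *Suz12*. *Cbx8* lay at 0.23 from *Rnf2*, with 4.20% of genes nearer to *Rnf2*, whereas *Ezh1* lay at 1.44 from *Ezh2*. The 8 points share 2 days and 4 lines, so most genes that differ between the days are alike in part by that alone.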

How the data were processed

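RNA-seq libraries of C3H10T1/2 cells were grouped by hairpin and day from the sample labels, with 1 library per condition. The authors used CLC Genomics Workbench (version 11.0.1) with GRCm38 as the reference, charging 2 for a mismatch and 3 for an insertion or a deletion and requiring 0.8 for both the length and the similarity fraction, and deposited RPKM values per gene, which correct for exon length and mapped reads. Multiplied by the exon lengths of GENCODE M21, in which 40851 of the 41325 symbols were found, the RPKM values gave whole reads within 0.02 for 96.2% to 96.6% of values, and hence depths and exact 95% intervals (Clopper-Pearson for ratios, Poisson for levels, Wald for differences of changes). These cover counting error only. The 2 ribosomal-RNA-like genes took 7.95% to 10.5% of reads at day 0 and 3.07% to 3.62% at day 5.

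Ratios of RPKM were computed without a pseudocount for genes over 1 RPKM in at least 1 library and called past 2-fold or 1.5-fold, in 10 comparisons, with Python 3.11.15, pandas 2.3.3 and scipy 1.17.1. The steps were tested on simulated counts. Lists used log2(RPKM + 0.1). Named were the 10 members, list genes past 2-fold (at most 3 per list and comparison), fixed proliferation markers, and the 3 genes nearest to each member that varied more than 2-fold, of which 1 is not reported here. The members and lists were chosen with earlier results of these data known. Alternatives were 0.1 or 1 added to RPKM, other scalings and filters.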

Additional observations from a re-analysis of the deposited data

Results flagged for a closer look

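Several Polycomb genes moved in opposite directions in 2 lines or on 2 days, each with a counting interval clear of 0. With 1 library per condition these differences were not tested. At day 0, the log2 ratio of *Ezh2* to shControl cells was 0.28 in shKDM4D and 0.48 in shMLL1 cells against -0.40 in shNFIB cells. For *Ring1* in shMLL1 cells it was -0.50 at day 0 and 0.32 at day 5, and for *Cbx7* in the same line -0.82 and 0.35. At day 5 the ratio of *Rnf2* to shControl cells was 0.23 in shNFIB and -0.24 in shMLL1 cells, and that of *Cbx7* was -1.38 in shNFIB and 0.35 in shMLL1 cells. The change of *Cbx7* between the days was -0.36 in shControl and 0.81 in shMLL1 cells. With *Gapdh* scaling the day 5 ratios of *Ring1* and *Cbx7* in shMLL1 cells turned to -0.04 and -0.01, and the day 0 ratios of *Ezh2* turned to -0.12 in shKDM4D and 0.24 in shNFIB cells.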

How the results depend on the processing

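All 27 member ratios past 1.5-fold kept their direction under 0.1 or 1 added to each RPKM, median-of-ratios scaling, quantile normalization, the ratio to *Gapdh* and mapped reads without 2 ribosomal-RNA-like genes, the last chosen after seeing the data, and 27, 21, 27, 22, 23 and 26 stayed past 1.5-fold. Of 71 ratios with an interval clear of 0, 56 kept their direction with *Gapdh*, 70 with quantile normalization and all 71 with each of the others. *Gapdh* itself ran from 158.7 to 326.3 RPKM, and scaled to it the median log2 ratio of all genes was 0.67 (shNFIB against shControl, day 0), -0.47 (shNFIB, day 5 against day 0) and 0.50 (shKDM4D, day 5 against day 0), where it was 0.03, 0.10 and 0.03 as deposited. As deposited it was 0.17 in shMLL1 cells between the days. The number of members past 2-fold was 1 in shControl cells between the days with 1 added. In shNFIB cells between the days it was 0 with 0.1 or 1 added, median-of-ratios scaling, quantile normalization or without the ribosomal-RNA-like genes, and 2 with *Gapdh*. In shNFIB cells against shControl it was 0 (1 added, or RPKM over 2) and 3 (*Gapdh*) at day 0, and 1 (1 added, or RPKM over 2) at day 5. In shMLL1 cells it was 2 at day 0 and 1 at day 5 with *Gapdh*. Past 1.5-fold it was 2 in shNFIB cells between the days (1 added) and 3 in shMLL1 cells (quantile). At day 0 it was 1 in shKDM4D (*Gapdh*), 7 (*Gapdh*) and 0 (RPKM over 2) in shNFIB, and 1 in shMLL1 cells (1 added, quantile or RPKM over 2), and at day 5 in shMLL1 cells 0 (1 added) and 2 (*Gapdh*). Changes differing from shControl numbered 5 in shKDM4D (*Gapdh*) and 1 in shNFIB cells (1 added). With 1 added, the log2 change of *Ezh1* to *Ezh2* was 2.54, 2.44, 1.43 and 3.35 in shControl, shKDM4D, shNFIB and shMLL1 cells. The cause of these shifts was not tested. Of all genes past 2-fold, the share that was higher moved with quantile normalization from 71.8% to 56.2% (shNFIB between the days), 74.7% to 52.8% (shMLL1 between the days) and 18.3% to 28.7% (shMLL1, day 0), and with *Gapdh* from 60.2% to 84.6% (shKDM4D between the days), 71.8% to 29.4% (shNFIB between the days), 31.8% to 10.7% (shKDM4D, day 0), 32.8% to 86.8% (shNFIB, day 0) and 56.6% to 31.5% (shMLL1, day 5). Pairing by replicate number needs more than 1 library per condition, and a fit of day with line as a block, which would take the 4 lines as replicates of each other, was not run. The depth limits *Cbx7*, *Cbx8*, *Ring1* and *Jarid2* most, with 52 to 698 reads per library.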
